A study of Homo sapiens with 10 samples.

Results

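Tightly packed overlapping positions are stretches of the genome where the nucleosome map of human induced pluripotent stem cells (hiPSCs) places one 140-bp nucleosome position on top of the next, several times in a row. A run was a maximal series of at least 5 consecutive distances between neighbouring midpoints, each from 100 to 130 bp, so that a run holds at least 6 positions and each position shares from 40 to 10 bp with its neighbour. On the 22 autosomes, 16825 such runs were found, and they held 108309 of 12465711 positions (0.869%). The list as a whole, with the sex chromosomes, holds 12921589 positions. A single distance from 100 to 130 bp was common, at 25.4% of the 12465689 neighbour distances. These distances chose the runs, so the spacing and the number of positions in a run are given as a description.

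The cells were of the hiPSC line PB010.5, a single human line with a FUCCI cell cycle reporter. All samples were undifferentiated cells, digested in suspension for 5 min with micrococcal nuclease (MNase), an enzyme that cuts the DNA linking nucleosomes. The enzyme was used at 5 concentrations from 0.5 U to 10 U (with 1 U, 3 U and 6 U between them), with 1 library at each, and yeast mononucleosomal DNA was added to each as a spike-in. Each library was read in paired-end runs of 150 bp and of 50 bp, which gives 10 samples. The positions were called by the authors on pooled libraries, with no value for a single concentration and no replicate, so the spread given here is the SD over autosomes, and no p-value can be given between samples.

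A nucleosome is DNA wrapped around a core of histone proteins, and the DNA between nucleosomes is the linker. On one DNA molecule, nucleosomes normally do not share bases, so a map made from many cells can show overlapping positions where different molecules carry the nucleosome at different places. MNase also trims nucleosome ends and cuts some bases more readily than others, and short protected fragments are seen where DNA is partly unwrapped. The pooled list holds no fragments, and these sources of overlapping positions cannot be told apart in it.

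The first 300 bases of 4 runs are printed here because they include a long run and the extremes of score and GC content, and show how unlike in sequence the runs are. Each stretch starts at the first base of the run's first position and reads 5′ to 3′ on the plus strand of the hg38 reference. Capitals mark the bases that lie in both of 2 neighbouring positions. Runs were passed over where the stretch touched an annotated untranslated region.
A run of 13 positions, at KRT73, chr12:52617672-52617971: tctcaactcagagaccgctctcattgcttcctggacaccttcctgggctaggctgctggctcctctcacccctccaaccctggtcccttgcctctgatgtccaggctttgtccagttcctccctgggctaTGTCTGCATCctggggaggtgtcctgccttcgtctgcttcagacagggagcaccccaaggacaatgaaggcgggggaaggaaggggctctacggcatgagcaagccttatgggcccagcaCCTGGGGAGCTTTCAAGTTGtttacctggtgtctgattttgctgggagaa
The run with the highest mean score, in the non-coding gene ENSG00000230676, chr9:129431752-129432051: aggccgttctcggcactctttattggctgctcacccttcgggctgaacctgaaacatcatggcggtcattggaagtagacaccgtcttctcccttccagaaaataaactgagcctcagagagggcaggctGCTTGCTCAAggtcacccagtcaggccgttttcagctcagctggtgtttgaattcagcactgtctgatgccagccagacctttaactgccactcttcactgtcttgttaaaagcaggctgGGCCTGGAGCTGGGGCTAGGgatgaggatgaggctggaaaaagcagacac
The run with the highest GC content, in the non-coding gene ENSG00000267737, chr17:78341782-78342081: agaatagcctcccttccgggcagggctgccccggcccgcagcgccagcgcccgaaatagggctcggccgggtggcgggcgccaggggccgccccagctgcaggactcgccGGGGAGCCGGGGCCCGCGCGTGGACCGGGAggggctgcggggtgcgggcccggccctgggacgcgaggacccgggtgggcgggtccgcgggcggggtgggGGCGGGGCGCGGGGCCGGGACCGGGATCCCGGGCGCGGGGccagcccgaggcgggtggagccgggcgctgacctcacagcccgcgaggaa
A run with the lowest GC content of the set, chr14:28902272-28902571: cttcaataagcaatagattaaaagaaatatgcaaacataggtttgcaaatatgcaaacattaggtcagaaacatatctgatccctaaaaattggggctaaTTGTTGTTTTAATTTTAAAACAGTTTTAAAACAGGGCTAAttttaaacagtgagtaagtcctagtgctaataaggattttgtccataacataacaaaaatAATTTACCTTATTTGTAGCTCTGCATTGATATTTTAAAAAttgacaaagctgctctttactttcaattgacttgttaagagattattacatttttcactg
The run with the highest GC content was 78.3% G or C over its positions and the AT-rich example was 29.0%, a GC content that 1 run on another chromosome shared.

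Most runs were short. Of the 16825 runs, 11791 (70.1%) held 6 positions, 3437 (20.4%) held 7 and 1097 (6.52%) held 8, while 153 (0.909%) held 10 or more. The mean was 6.44 positions. From the start of the first position to the end of the last, runs covered 640 to 1650 bp, with a median of 720 bp. Just outside the rule stood 38346 series of exactly 4 tight distances, with a mean score of 16.0 and a mean GC content of 46.1%, beside 16.3 and 46.6% for the 11791 series of exactly 5. Within runs the distances leaned slightly to the lower limit: 28.1% were 100 bp, 25.2% were 110 bp, 21.1% were 120 bp and 19.2% were 130 bp, against 26.8%, 24.6%, 21.5% and 19.7% of the tight distances outside runs. No distance in the list was below 100 bp, and 6.84% of all were exactly 100 bp, so the lower limit of the rule is also the closest spacing in the list.

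The order of the distances was set against a reference in which the same distances were reordered within each chromosome. Over 20 reorderings the number of runs ranged from 9864 to 10160 with a mean of 10008.6, so the observed number was 1.68 times the reordered mean. The ratio was above 1 on each of the 22 autosomes, from 1.47 on chromosome 15 to 1.84 on chromosome 11, and its SD over autosomes was 0.0806. When distances were reordered only within 1-Mb windows, which keeps differences between broad regions, the mean was 10938.6 runs and the ratio fell to 1.54. Within 100-kb windows the mean was 11210.4 runs and the ratio was 1.50. Most of the surplus was thus present at a scale below 100 kb.

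The surplus grew with the number of positions. Runs of 6 positions were 1.59 times as many as after reordering within chromosomes, runs of 7 were 1.79 times, runs of 8 were 2.24 times and runs of 9 were 2.75 times. Isolated pairs of positions with 1 tight distance were fewer than after reordering, at 0.892 times. After 1 tight distance the next was also tight in 29.4% of cases, against 25.4% of all distances. After 5 tight distances in a row the share was 30.4%, so each further step was about as likely as the one before. Of the observed runs, 8.68% were within 5 kb of another. The mean was 3.95% (range 3.43% to 4.43%) after reordering within chromosomes and 5.83% (5.21% to 6.36%) after reordering within 100-kb windows. The reordered lists held fewer runs, with means of 10008.6 and 11210.4 against 16825, and this share rises with the number of runs. It is thus not separate from the surplus, and closeness beyond the surplus was not tested.

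**Figure D1:**
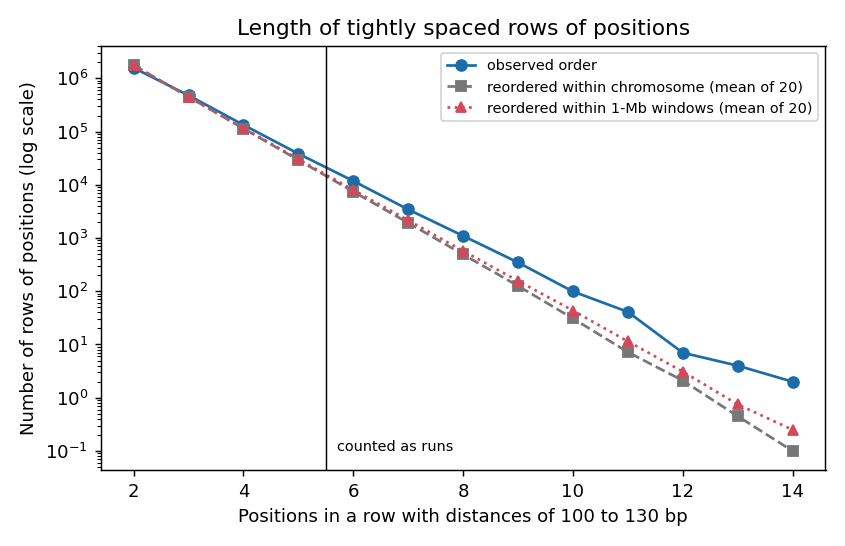
Number of maximal series of positions spaced 100 to 130 bp apart (vertical axis, log scale) by the number of positions in the series (horizontal axis), for the observed order and for the mean of 20 reorderings of the distances within chromosomes and within 1-Mb windows. The vertical line marks the start of the runs, and from 6 positions on the observed counts lie above both reordered counts, 11791 against 7428 within chromosomes at 6 positions.

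Runs were most frequent on GC-rich chromosomes. There were 6.10 runs per Mb of sequenced bases over all autosomes and 6.40 ± 1.52 (SD, n = 22 autosomes) per chromosome. Chromosome 4 had the fewest, at 4.12 per Mb, and chromosome 22 the most, at 9.45 per Mb. Across the 22 autosomes, runs per Mb and GC content had a Pearson r of 0.929 and a Spearman rho of 0.901. Without chromosomes 19 and 22, which have the highest GC content, these were 0.917 and 0.872. Single tight distances were also more common on chromosome 22, at 28.5% of distances against 23.6% on chromosome 4. The observed number of runs was 1.59 times the reordered mean on chromosome 22 and 1.69 times on chromosome 4. The higher frequency on chromosome 22 was thus also present after reordering, and is not read as a trait of the order of distances. All chromosomes come from the same pooled libraries, so this is a description of 1 list. Runs of at least 5 distances from 170 to 200 bp, the spacing of nucleosomes that do not overlap, served as a comparison, and their frequency was related to GC content in the same direction, with an r of 0.877. There were 7286 such runs, holding 46263 positions (0.371%).

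**Figure D2:**
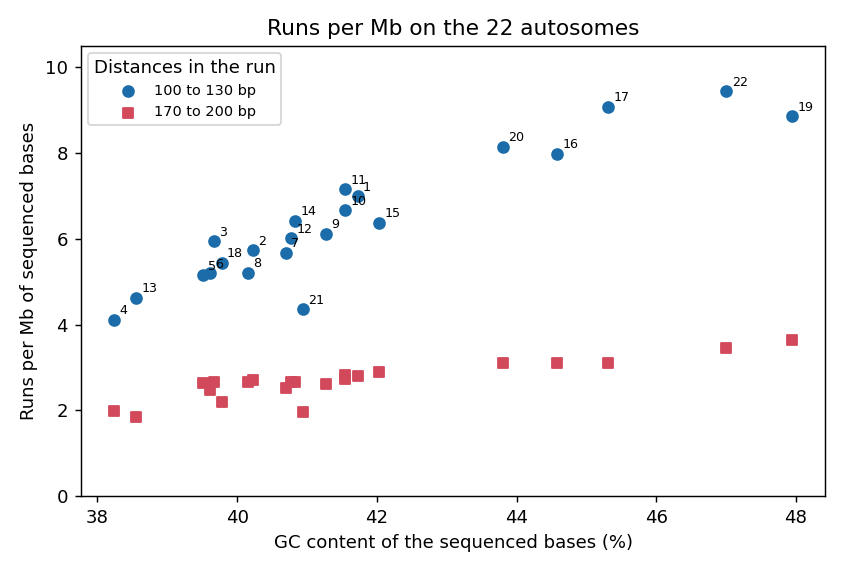
Runs per Mb of sequenced bases (vertical axis) against the GC content of the sequenced bases (horizontal axis, %) for each of the 22 autosomes, with circles for distances of 100 to 130 bp, numbered by chromosome, and squares for 170 to 200 bp. The tight runs go from 4.12 per Mb on chromosome 4 to 9.45 per Mb on chromosome 22, and the runs at 170 to 200 bp from 1.84 to 3.64.

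The DNA under the runs was richer in G and C than that under other positions. Over the length of DNA that a nucleosome wraps, centred on the midpoint, run positions had a mean GC content of 46.9%, against 43.2% for all autosomal positions. The difference was 3.66 percentage points over all positions and 3.23 ± 0.529 points (SD, n = 22 autosomes) when taken per chromosome, and it was above 0 on each of the 22 autosomes. Positions with a tight distance on one side or both but outside runs were in between, at 44.4%. Positions in runs at 170 to 200 bp had 45.0%, which was lower than in the tight runs on each of the 22 autosomes. Single runs spread widely around these means, with a median GC content of 46.3% and quartiles of 42.0% and 51.0%.

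The share of positions that lay in a run rose with GC content over most of its range. It was 0.256% of positions with less than 30% GC, 0.896% of those with 40 to 45%, and 1.65% of those with 60 to 65%. In the most GC-rich positions, from 65% upwards, it was 1.35%. Over the same classes the share in runs at 170 to 200 bp went from 0.257% to 0.682%. Thus below 30% GC the tight and the wider runs took almost equal shares of positions, and at 60 to 65% GC the tight runs took 1.65% against 0.592%.

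Inside the runs the midpoints were poorer in G and C than the DNA between them. For an inner position of a run, the 21 bp at the midpoint had 45.8% GC and the DNA from 50 to 65 bp to either side, about halfway to the neighbours, had 48.0%. Per chromosome this difference was -2.21 ± 0.393 points (SD, n = 22), below 0 on each of the 22 autosomes. At the same offsets, every 100th autosomal position had 43.2% and 43.4%, a difference of -0.159 ± 0.288 points that was above 0 on 7 autosomes and did not exceed the spread. Inner positions of runs at 170 to 200 bp had 45.0% at both places, with a difference of -0.00714 ± 0.524 points, but their halfway point lies further out. The midpoint was then set against 21 bp at the actual halfway point to each neighbour. This difference was -2.21 ± 0.371 points in the tight runs and -0.597 ± 0.560 in the wider runs, where it was below 0 on 18 of 22 autosomes. Over all positions it was 1.38 ± 0.157, above 0 on each of the 22. Positions outside runs with tight distances on both sides had -1.82 ± 0.297 points, below 0 on each of the 22 autosomes, so the dip was not particular to runs. The base preference of MNase was not measured here, and its part in these differences was not tested.

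**Figure D3:**
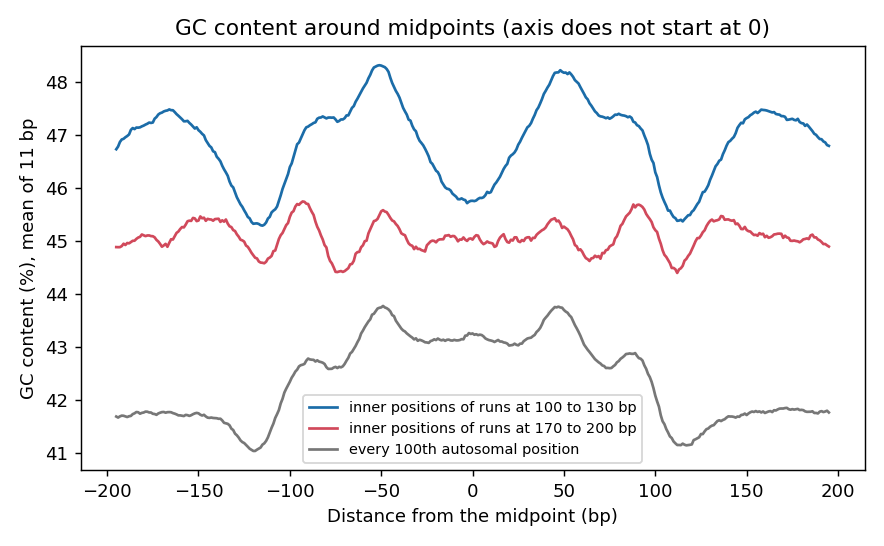
GC content (vertical axis, %, averaged over 11 bp) by distance from the midpoint (horizontal axis, bp), for inner positions of the tight runs, inner positions of runs at 170 to 200 bp and every 100th autosomal position; the vertical axis does not start at 0. In the tight runs the curve dips at the midpoint, where the 21-bp mean is 45.8%, and rises 50 to 65 bp away, where it is 48.0%.

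The score is the signal that the authors' list gives for each position, in steps of 1.23. In runs it was close to that of other positions. The median was 14.8 in runs and 14.8 over all autosomal positions. The mean was 16.4 in runs and 15.8 over all, and the difference per chromosome was 0.458 ± 0.345 (SD, n = 22 autosomes), higher in runs on 18 autosomes and lower on 4. Score rises with GC content across the list, from a mean of 9.59 below 30% GC to 23.6 at 60 to 65%. When all positions were weighted to the GC content of the run positions their mean score became 17.3, and runs were then lower by -0.909 ± 0.175, on each of the 22 autosomes. In each GC class the mean score was lower in runs than over all positions, by -0.0296 below 30% and by -1.50 at 60 to 65%. The direction of the score difference thus depended on whether GC content was matched.

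Against the wider spaced runs the difference was larger. Positions in runs at 170 to 200 bp had a mean score of 18.4 and a median of 17.3, and the tight runs were lower in mean on each of the 22 autosomes, by -2.17 ± 0.639. The strongest positions were correspondingly divided: among positions with a score of 44.4 or more, 0.808% lay in tight runs and 1.18% in runs at 170 to 200 bp, and among those at 6.17 or less these shares were 0.690% and 0.204%. The share in tight runs was highest, 0.981%, between 22.2 and 28.4.

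Scores varied within single runs and between them. The mean score of a run went from 7.40 to 39.3 with a median of 16.0. The highest score in a run was 3.00 times the lowest at the median, and the SD of the scores in a run had a median of 6.23. Neighbouring scores differed by a mean of 7.57 in tight runs, 8.22 in runs at 170 to 200 bp and 7.16 over all positions. Unevenness was thus not particular to tight runs. The strongest and the weakest position of a run also differed in GC content. The strongest had a mean GC content of 49.9% and the weakest 44.2%, and the difference per chromosome was 5.66 ± 0.405 points, in the same direction on each of the 22 autosomes. Score rises with GC content over the whole list, and this difference was not computed for other series of positions. It is therefore not read as a trait of tight runs.

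Scores also depended on the place in the run. The outermost positions, which have a tight neighbour on one side only, were higher than the inner ones by 1.24 ± 0.376, on each of the 22 autosomes. In runs of 6 positions the mean scores along the chromosome were 17.0, 15.6, 16.3, 16.1, 15.4 and 17.4. The second position from either end was the lowest, under its outer neighbour by 1.60 ± 0.513 and under its inner neighbour by 0.689 ± 0.289, both on 22 of 22 autosomes. In runs of 7 positions the same differences were 1.45 ± 0.535, on 22 of 22, and 0.445 ± 0.570, on 18 of 22. In the 1097 runs of 8 positions the means were 17.6, 15.8, 16.4, 16.7, 16.7, 16.8, 15.9 and 18, and in the 347 runs of 9 they were 17.9, 15.8, 17.1, 16.4, 16.8, 16.1, 17.0, 16.0 and 17.8, for which no spread over autosomes was computed. The second position from either end was again the lowest in both, while the inner means went up and down in runs of 9 and not in runs of 8. Runs of 6 positions at 170 to 200 bp had lower ends, with an end minus its neighbour of -0.633 ± 0.704, and it was above 0 on 3 of 22 autosomes. The distances beyond the ends of the tight runs had a median of 200 bp, as did all distances above 130 bp, and 4.54% of them were above 400 bp against 8.01%.

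**Figure D4:**
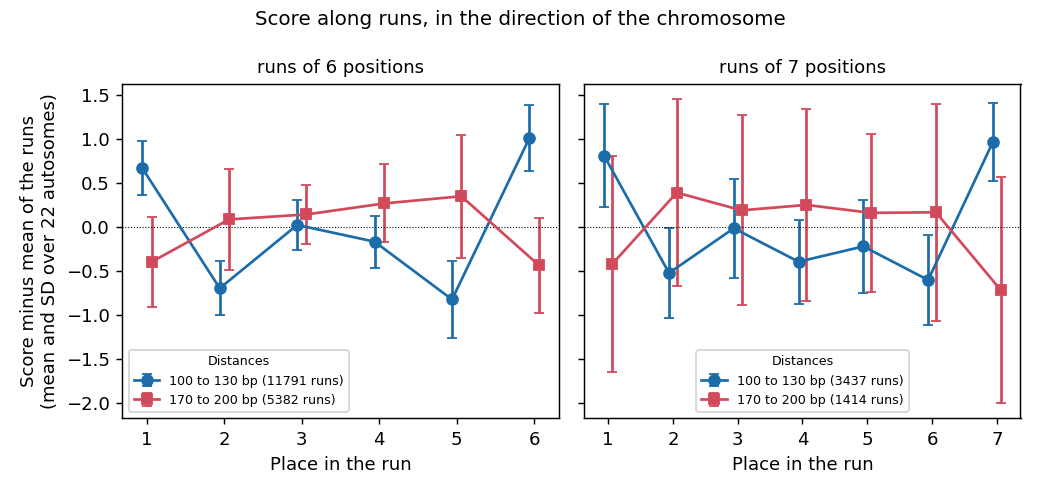
Score at each place of runs of 6 and of 7 positions (horizontal axis, counted along the chromosome) minus the mean score of those runs (vertical axis), with points and bars for the mean and SD over 22 autosomes, for distances of 100 to 130 bp and of 170 to 200 bp. In the tight runs of 6 the ends stand at 0.67 and 1.01 above the mean and their neighbours at -0.70 and -0.83, while the ends of runs at 170 to 200 bp stand at -0.40 and -0.44.

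Genes held more of the runs than of the positions in general. Features were taken from GENCODE release 44, 0.40 of the 140 bp had to lie in a feature, and features can overlap. Introns held 65.2% of run positions and 61.9% of all autosomal positions, a difference of 2.87 ± 1.93 points (SD, n = 22 autosomes) that was above 0 on 21 autosomes. Intergenic DNA, more than 2 kb from any gene, held 27.4% against 32.0% and was lower in runs on each of the 22 autosomes. Weighting all positions to the GC content of the runs left ratios of 1.05 for introns and 0.891 for intergenic DNA.

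Of the features counted, coding exons and 3′ untranslated regions had the largest ratios. Coding sequence held 2.70% of run positions against 1.71% of all, a ratio of 1.58, with the runs higher on 21 of 22 autosomes. After weighting for GC content the ratio was 1.20, and the difference per chromosome of 0.456 ± 0.651 points, higher on 19 and lower on 3, was smaller than its SD. The 3′ untranslated regions held 2.84% against 2.00%, a ratio of 1.42 that became 1.28 after weighting, with a difference per chromosome of 0.617 ± 0.670 points, higher on 19 of 22 autosomes and also smaller than its SD. The 5′ untranslated regions held 0.538% against 0.454%, with runs higher on 13 autosomes and lower on 9, so this difference was within the spread. In runs at 170 to 200 bp coding sequence took 2.01% and 3′ untranslated regions 1.96%, and the tight runs exceeded them on 18 and 21 of 22 autosomes.

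Promoters, the 2 kb upstream of genes, gave no stable difference. They held 4.75% of run positions and 4.26% of all, higher on 17 autosomes and lower on 5. After weighting for GC content the ratio of 1.11 turned to 0.973, with 11 autosomes on either side. Runs at 170 to 200 bp had more promoter positions, 5.75%, and the tight runs were below them on 19 of 22 autosomes.

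Transcription start sites were examined next. Around the 5′-most start of protein-coding genes, positions in tight runs made up 1.11% of the positions 10 to 5 kb upstream, 0.894% from 1000 to 500 bp upstream, 0.816% from 500 to 200 bp upstream and 0.958% in the last 200 bp. From the start to 200 bp downstream the share was 0.799%, and from 500 to 1000 bp downstream it was 1.18%. The share in runs at 170 to 200 bp went from 0.445% at 10 to 5 kb upstream to 0.896% at 500 to 200 bp upstream, and down to 0.410% at 5 to 10 kb downstream. From 500 bp upstream to 200 bp downstream, read as 1 interval, the tight runs held 0.848% of positions, against 1.19% of those 5 to 10 kb away on either side. Per chromosome this difference was -0.360 ± 0.515 points (SD, n = 22 autosomes), lower on 15 and higher on 7, so it did not exceed the spread between autosomes. For the runs at 170 to 200 bp it was 0.412 ± 0.250 points, higher on 21 of 22. Of 19111 start sites, 73 (0.382%) lay inside a tight run. The share of all autosomal bases inside tight runs was not computed, and the shares above are of positions. This is therefore a count only and shows neither an excess nor a lack of start sites in runs.

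**Figure D5:**
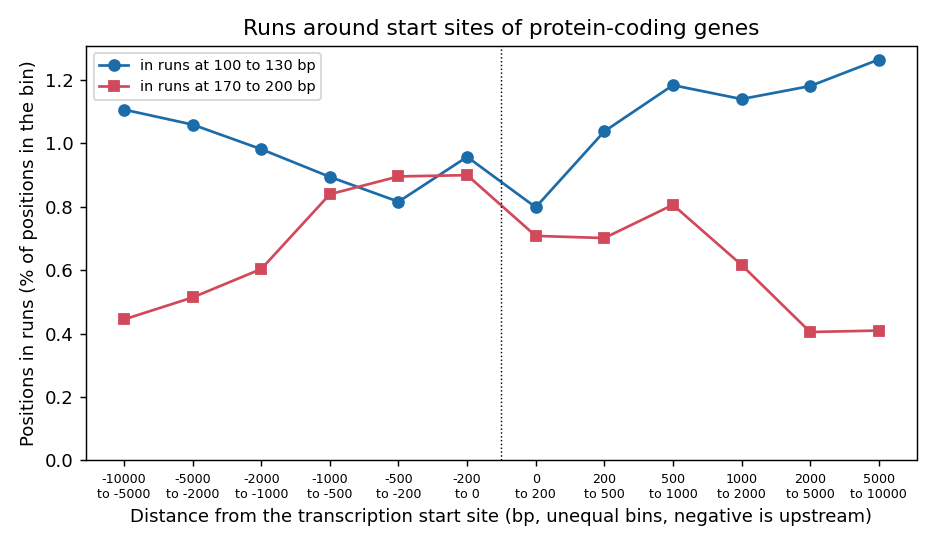
Share of positions that lie in runs (vertical axis, % of the positions in each bin) by distance from the 5′-most start of protein-coding genes (horizontal axis, bp, unequal bins, negative upstream), with circles for distances of 100 to 130 bp and squares for 170 to 200 bp. The tight runs stand at 1.11% at 10 to 5 kb upstream, 0.816% from 500 to 200 bp upstream, 0.958% in the next bin and 0.799% just downstream of the start, while the runs at 170 to 200 bp are at 0.896% from 500 to 200 bp upstream.

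Among start sites inside runs, those in the runs of highest mean score belonged to MUC12, ALDH2, ADORA3, ICAM1, FUT2, MOB2, SCGB1A1, BPIFB1, DEFB124 and DBF4B. MUC12 encodes a mucin of epithelial surfaces, and the centre of its 7-position run, chr7:100969362-100970191, lay 212 bp from the start. The scores there were 8.64, 21.0, 29.6, 50.6, 46.9, 28.4 and 58.0, with distances of 120, 130, 120, 120, 100 and 100 bp. ALDH2 encodes the mitochondrial aldehyde dehydrogenase, and its start lay 95 bp from the centre of a 6-position run, chr12:111766432-111767151, with scores of 27.1, 9.87, 53.1, 9.87, 9.87 and 69.1. In this run 3 of the 6 positions had the same low value, between much higher ones. ICAM1, a cell adhesion molecule of the immunoglobulin family, had a run at chr19:10270862-10271541 with scores of 18.5, 21.0, 18.5, 61.7, 6.17 and 37.0.

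Of the 10 longest runs, with ties ordered by mean score, 7 lay in protein-coding genes. Over all 16825 runs there were 9900 pairs of a run centre and a protein-coding gene, so this count is not read as a trait of long runs. EIF4EBP2, a repressor of translation that binds eIF4E, held a run of 14 positions. Of these positions, 6 were in the 3′ untranslated region and 8 in introns. Its scores were 9.87, 18.5, 17.3, 16.0, 7.40, 22.2, 19.7, 12.3, 16.0, 30.8, 13.6, 19.7, 21.0 and 11.1, with no steady trend along the run. PSME3IP1, which encodes a partner of a proteasome activator, held the other run of 14, at chr16:57152762-57154411, with each position in its 3′ untranslated region. Its scores were 24.7, 24.7, 6.17, 25.9, 13.6, 25.9, 7.40, 14.8, 6.17, 9.87, 11.1, 23.4, 13.6 and 22.2, and high and low values followed each other, between 6.17 and 25.9.

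KRT73, a keratin gene of the hair follicle, held 13 positions at chr12:52617672-52619231, centred close to its start. Of these, 6 were in the promoter, 4 in coding sequence and 4 in introns. Higher and lower scores alternated over the first 9 positions of this run, whose scores were 29.6, 14.8, 21.0, 16.0, 22.2, 18.5, 24.7, 17.3, 23.4, 7.40, 14.8, 33.3 and 17.3 in all. The other runs of 13 were in TGFBRAP1, which encodes a protein associated with TGF-β receptors, and at 2 places on chromosome 10 outside protein-coding genes, chr10:102658297-102659771 and chr10:11369982-11371461. Runs of 12 included SH3PXD2A, an adaptor of invasive cell protrusions, UBR4, a ubiquitin ligase, the overlapping RPL28 and UBE2S, and an intergenic run at chr11:60960502-60961911. SH3PXD2A spanned the widest scores of these, from 7.40 to 46.9.

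The run with the highest mean score, 39.3, lay in the non-coding gene ENSG00000230676 at chr9:129431752-129432481, with scores of 29.6, 55.5, 55.5, 30.8, 8.64 and 55.5. MUC12 followed with a mean of 34.7. In GPRIN2, which encodes a G protein-regulated inducer of neurite outgrowth, 6 positions in the 3′ untranslated region at chr10:46542562-46543251 had a mean of 34.1. An alternating run stood at chr16:2955792-2956511, with scores of 16.0, 51.8, 13.6, 62.9, 14.8 and 39.5, and the fifth, at chr16:21574282-21574971 in intergenic DNA, had a mean of 31.7. Even in these runs the lowest score was between 8.64 and 13.6.

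Protein-coding genes on autosomes held the centres of runs in 5608 of 19111 cases (29.3%), and the 9900 gene and run pairs came to 0.750 per 100 kb of gene. The frequency went down with gene length, from 1.16 per 100 kb in genes under 10 kb to 0.607 in genes of 200 kb and more, although 81.5% of the latter held a run against 5.41% of the former. The genes with most runs were long. RBFOX1, a splicing regulator of neurons and muscle, held 22 runs in 2474 kb, or 0.889 per 100 kb. All genes stood at 0.750 and genes of 200 kb and more at 0.607. NAV2, a neuron navigator, and NTM, a neural cell adhesion molecule, held 17 each, PTPRN2 15, SLIT3 and ZFHX3 14, ASIC2, AUTS2 and DAB1 13, and KCNQ1 12. In KCNQ1, which encodes a potassium channel of heart and epithelium, the frequency was 2.97 per 100 kb, and 7 of the 12 runs lay in the window chr11:2700001-2800000.

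Higher frequencies were found in genes of moderate length. Among the 279 genes with at least 5 runs, ITPR3, a calcium channel of the endoplasmic reticulum, had 6 runs in 76.2 kb, or 7.87 per 100 kb, and SYT7, a calcium sensor of vesicle fusion, had 5 at 7.41. PTPRF, TIMP2, TNXB, BAIAP2, SRRM3, ENSG00000249240 and FAM53B followed, from 7.11 down to 5.60 per 100 kb. These were picked from all genes for their number of runs, so their frequencies are the upper end of the range. Across 26755 windows of 100 kb, 57.0% held no run and 63 held 5 or more. The windows with most held 7 runs, in KCNQ1 and at chr12:117400001-117500000, where NOS1, the neuronal nitric oxide synthase, held 4 and its neighbour KSR2 held 3.

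Gene groups of interest in hiPSCs and heart cells were counted in the same way. Over all protein-coding genes the share with a run rises with length, from 21.2% at 10 to 50 kb to 49.5% at 50 to 200 kb. The groups were not matched for gene length, so their shares are counts and not results about the groups. Of 16 pluripotency factors and markers, 6 held a run (37.5%), with 8 runs in all or 1.39 per 100 kb, beside 29.3% and 0.750 per 100 kb for all protein-coding genes. ESRRB, an orphan nuclear receptor, held 3, and SOX2, DPPA4, SALL4, TERT and DNMT3B held 1 each. POU5F1, NANOG and LIN28A were among the 10 members that held 0. The SOX2 run, chr3:181712762-181713451, lay 1182 bp from the start with 5 of its 6 positions in coding sequence and 62.7% GC, and its scores were 22.2, 25.9, 18.5, 7.40, 7.40 and 7.40. The first 3 positions there were high and the other 3 were equal and low.

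Of 20 genes of heart muscle, 8 held a run (40%), with 17 runs or 0.670 per 100 kb. All protein-coding genes, not matched for length, stood at 29.3% and 0.750 per 100 kb. CACNA1C, a calcium channel gene of 727 kb, held 9 of them, and ATP2A2, the calcium pump of the sarcoplasmic reticulum, held 2. MYH6 and MYH7, the neighbouring myosin heavy chain genes, held 1 each. The MYH7 run, chr14:23427262-23428011, had a mean score of 23.4 and 53.2% GC, and that of MYH6, chr14:23382442-23383181, had 23.6 and 54.6%. These genes are similar in sequence, so reads may be shared between them. Of 15 autosomal genes of chromatin remodelling complexes, 7 held a run (46.7%), with 15 runs or 0.757 per 100 kb. That frequency was close to the 0.750 of all protein-coding genes, and the share was again not matched for length. ARID1B, a subunit of the BAF complex, held 5, CHD7 held 3, and SMARCA2 and CHD8 held 2 each.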

How the data were processed

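MNase-seq was carried out on hiPSCs at 5 enzyme concentrations, 10 samples in all. The authors trimmed the reads (Trimmomatic 0.40 per the submitters' processing notes), aligned them to GRCh38, removed blacklisted regions and called positions within the nucMACC workflow on pooled libraries. The deposited list gives each position as 140 bp with a signal, called the score here, in multiples of 1.23. The program that called the positions, the libraries pooled and the scaling of the score are not given in the sources used here, so the reads behind a score are unknown and no counting error is given.

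Midpoints (start + 70) were used as deposited on autosomes. GC content was taken over 147 bp of hg38 and features from GENCODE 44. Distances were reordered 20 times. Sequence windows were 701 bp. The named genes hold the 10 longest runs, most runs (10 genes), most runs per 100 kb among genes with at least 5 (10 genes), a start site inside a run (the 10 highest mean scores) or the 5 highest mean scores, or are up to 4 members with most runs of each of 3 gene lists, ties included; POU5F1, NANOG and LIN28A were added after their values were seen. 1 gene and 1 sequence chosen by these rules are not reported here. Runs and lists were chosen with earlier results of these data known. Alternatives were other limits of distance and length, strong positions only, other overlaps, protein-coding genes only, no positions near unsequenced bases, and weighting by GC content. Python 3.11.15, NumPy 2.4.6, pandas 2.3.3, SciPy 1.17.1 and matplotlib 3.10.9 were used, and the scripts were tested on simulated distances.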

Additional observations from a re-analysis of the deposited data

How the results depend on the processing

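Of 68 values for 10 results under other settings, 44 kept within a set limit, 22 moved by more and 2 changed direction. The limit was the SD over autosomes, except for the number of runs per Mb, where it was a fixed band around the reported value. Of the 68, 7 were added after seeing the data. The number of runs followed the rule, by construction. It was 20.0 per Mb with at least 4 distances (5.44 positions per run), 0.579 with at least 7 (8.46), 2.05 with an upper limit of 120 bp (6.33), 13.4 with 140 bp (6.56) and 0.416 when weaker positions, below the median score, were left out (6.30). The GC difference grew to 4.76 points with at least 7 distances and 6.98 with the stronger positions. The intron ratio was then 1.10 and 1.11, and 1.13 with protein-coding genes only, and the intergenic ratio was 0.753 and 0.672. With the stronger positions the ratio of median scores was 1.06 and the coding ratio 2.84, from 1147 runs. Weighting by GC content, an added setting, brought the coding ratio to 1.20, turned the promoter ratio from 1.11 to 0.973 and turned the mean score difference from 0.672 to -0.875. Reordering within 1-Mb and 100-kb windows, also added, gave observed to reordered ratios of 1.54 and 1.50. No paired analysis was possible because the positions were called on pooled libraries and carry no value per sample. The list has 1 value per position, a grid that is mostly 10 bp and a closest spacing of 100 bp, so how the calling program resolves overlapping signals was not tested. The depth behind a score is unknown, and scores closer than 1.23 cannot be told apart.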

Other observations

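A window of 701 bp around the centre of a run was read for short sequence features, beside the same windows around runs at 170 to 200 bp and around every 1000th autosomal position. The consensus of CTCF, a factor that binds insulators and sets arrays of nucleosomes beside its sites, matched in 31 of 16824 windows of tight runs (0.184%), 39 of 7286 windows of the wider runs (0.535%) and 36 of 12465 other windows (0.289%). The SD of these shares over autosomes was 0.230, 0.563 and 0.254. Matches on a single autosome were few and no difference per autosome was computed, so whether the shares differ was not tested. Tight runs had the lowest share of these windows in each GC class from 35 to 60%, but some classes held very few matches. At 35 to 40% GC the shares were 0.0435% of 2297 windows of tight runs and 0.0675% of 1481 windows of the wider runs. At 45 to 50% GC tight runs and every 1000th position were close, at 0.237% and 0.244%. At 50 to 55% GC the shares were 0.283%, 1.22% and 0.484%. Stretches of at least 10 A or 10 T occurred in 17.0%, 18.7% and 21.3% of the windows. Their SD over autosomes was 3.31, 2.97 and 3.62. Repeats of CA or TG of at least 20 bases occurred in 0.945%, 1.37% and 1.67%. Windows of tight runs had a mean GC content of 46.7%, against 42.0% around every 1000th position. At 40 to 45% GC the A or T shares were 18.9%, 21.4% and 26.1%. At 55 to 60% GC they were 6.45%, 6.15% and 6.48%. Except at 50 to 55% GC, CA or TG repeats were rarer in tight runs than around every 1000th position from 35 to 60%.

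Repeated sequence was not more frequent in the tight runs than around every 1000th position. Windows in which at least 20% of the 14-base words occur 5000 times or more in the genome made up 15.4% of tight runs, 13.4% of the wider runs and 16.7% of the other windows. Among windows of 45 to 50% GC these shares were 26.2%, 24.9% and 32.6%. Windows that repeat themselves at a shift of 20 to 200 bp, with at least 70% identity over the whole window, were 2 of the 16824 windows of tight runs. In none of them was the best shift from 100 to 130 bp. Tandem repeats of that length that fill most of a window were thus not found. Arrays over a smaller part of a window, or with less alike copies, could be missed and were not tested.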
